A study of Mus musculus with 6 samples.

Results

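The TNF superfamily ligands and receptors were followed in the lungs of mice that carry a T-bet transgene, together with TRAF1, TRAF2 and TRAF3, adaptors that many of the receptors bind. A gene was a member if its symbol begins with Tnfsf or Tnfrsf and a number, or if it is Cd40lg, Cd27, Cd70, Fas, Fasl, Lta, Ltb, Ltbr, Traf1, Traf2 or Traf3. The rule also names Cd40, for which no probe was matched. By this rule 42 of the 16358 genes matched to the array were members, measured by 51 of its 41174 probes: 16 ligands, 23 receptors and 3 adaptors. Of these, 34 genes had a probe that was well above background on 2 or more of the 6 arrays and were tested, and 8 did not.

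The ligands are mostly trimeric membrane proteins of activated lymphocytes and myeloid cells, and some are shed in soluble form. One branch of the receptors carries a death domain and can start apoptosis, as Fas and the TRAIL receptor do. Most others bind TRAF proteins and switch on NF-kappaB and MAP kinases: CD137, OX40, GITR and CD27 sustain T cell responses in this way, and BAFF receptors keep B cells alive. A further set of receptors sits on epithelial, stromal or myeloid cells, among them RANK, the TWEAK receptor and TROY.

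Total RNA of whole lung was hybridised to single-colour 44K Agilent arrays, 2 per genotype, and all mice had the C57BL/6 background. The groups were WT, without the transgene, hCD2-T-bet tg/wt, hemizygous for it, and hCD2-T-bet tg/tg, homozygous for it. The study asked which lung transcripts accompany the pulmonary alveolar proteinosis that follows T-bet overexpression in T cells, and the transgene's name refers to human CD2 sequences, which direct expression to T-lineage cells. Age, sex and number of animals are not given in the sources used here, and the labels do not state whether the paired arrays are separate animals, so p-values measure the spread between arrays, which may be technical. Levels are given as log2 of the processed intensity relative to the 75th percentile of that array, so that 0 is the level that 75 percent of the probes do not exceed, and a difference of 1 is a doubling.

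The 75th percentile lay between 794 and 1204 intensity units, 62.0% to 66.8% of probes were well above background, and the paired arrays correlated at 0.996 to 0.997 over the tested genes. Both WT and both tg/tg arrays were on 1 slide and both tg/wt arrays on another, so slide and genotype cannot be told apart in any comparison with tg/wt. Tbx21, which encodes T-bet, had levels of -0.70 and -0.71 on the WT arrays, 1.30 and 1.34 on the tg/wt arrays and 3.25 and 3.26 on the tg/tg arrays, in the order of the labels. The 10 epithelial markers averaged 5.39 to 5.54 on every array. The number of arrays limits the precision of every value.

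Across the family, transcripts of tg/tg lung stood mostly above WT. Of the 34 tested members 28 were higher and 2 were lower in tg/tg than in WT, where 33.8% of all 12968 tested genes were higher and 40.8% lower, and the median difference was 1.12 over the members and -0.05 over all genes. In tg/wt against WT 13 members were higher and 1 was lower, with 13.4% of all genes higher and 14.6% lower, and a median difference of 0.11. In tg/tg against tg/wt 26 members were higher and 3 lower, with 34.0% and 40.2% of all genes in those directions. Differences were tested with limma over all 6 arrays and called at an adjusted p under 0.05. Both comparisons with WT use the same WT arrays and are therefore not independent. In RNA of whole lung, more or fewer cells of a type and more or less RNA per cell cannot be told apart.

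Of the 10 tested ligands 7 were higher and 1 was lower in tg/tg than in WT, and of the 21 tested receptors 18 were higher and 1 lower. The 3 TRAF genes were all higher. In tg/wt the calls were 3 ligands higher, 10 receptors higher and 1 lower, and no TRAF gene. For 16 of the 34 members the arrays of the 3 genotypes did not overlap and rose from WT through tg/wt to tg/tg, an order that 14.7% of all genes had. Only Tnfsf13 among the members had the reverse order without overlap, as 18.4% of all genes did. Leaving out 1 array changed the count of members higher in tg/wt to as few as 9 and the count higher in tg/tg to as few as 26.

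**Figure D1:**
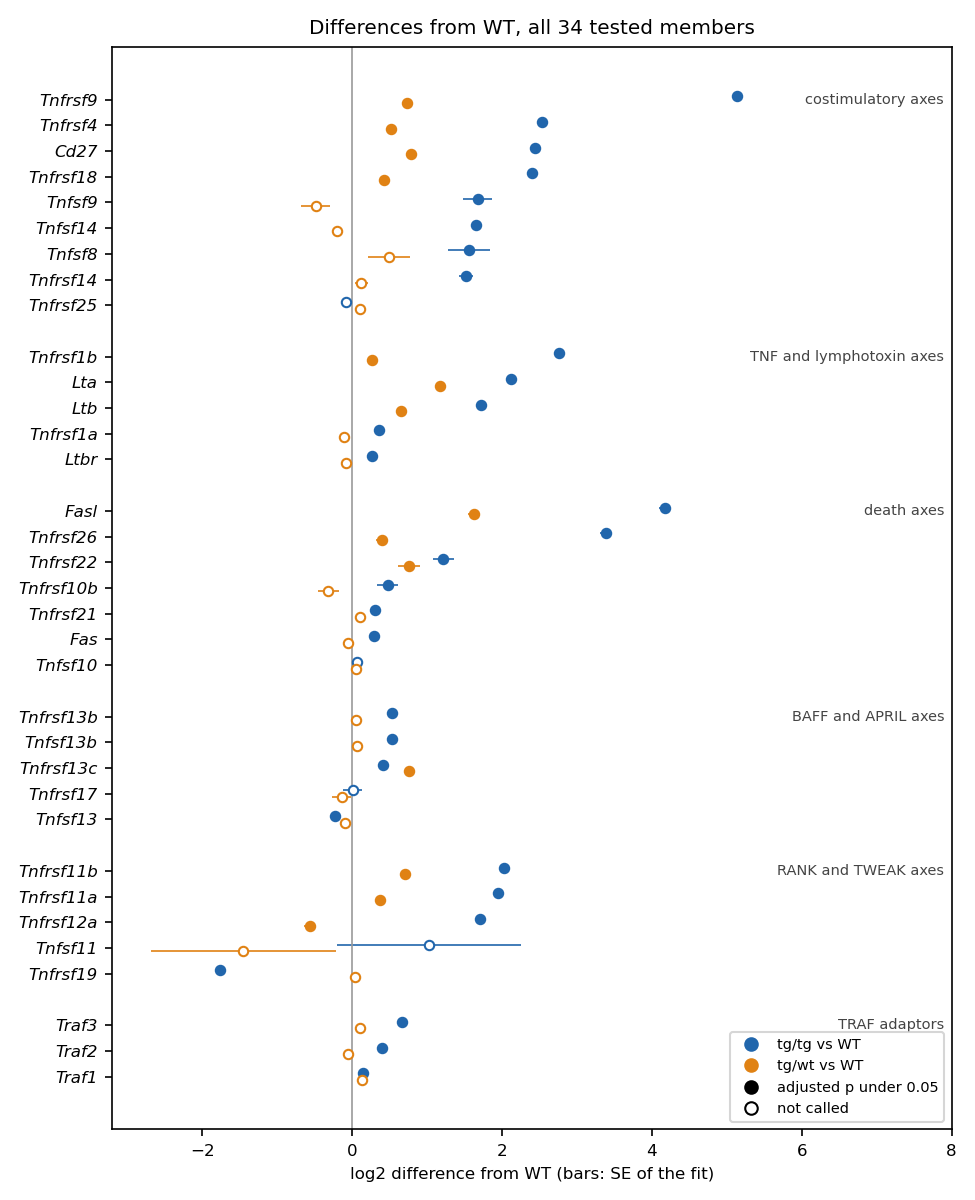
Log2 difference from WT for each of the 34 tested members, with tg/tg against WT in blue and tg/wt against WT in orange. Filled points have an adjusted p under 0.05, open points do not, and bars are the standard error of the fit. Most blue points lie to the right of 0, with Tnfrsf9 at 5.14 and Tnfrsf19 at -1.77 at the ends.

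Promoter sequence was available from RefSeq (GRCm38.p6) for 33 of the 42 members. The 250 bases before the start were searched on both strands for 5 motifs of factors active in lymphocytes and macrophages: GGG and TTTCC with any 2 letters between them (NF-kappaB), TTCNNNGAA (GAS, bound by STAT factors), GAAA repeated after any 2 letters (ISRE, bound by interferon regulatory factors), TCACACC (the T-box core) and TGANTCA (AP-1). The NF-kappaB letters were found in 4 member genes, against 1.65% of all 27025 genes in the same table, the GAS letters in 8 (8.13% of all genes), the ISRE letters in 4 (3.46%) and the AP-1 letters in 6 (7.82%). The T-box letters were found in 0 of the 33 member windows and in 3.85% of all genes. No matches overlapped each other. A match is a run of letters in this window and nothing more.

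Shown here are the windows of 4 receptors or ligands that rose and hold matches, of Fasl, which rose and holds none of these letters, and of Tnfrsf19, which fell and holds none. Matches and direction did not pair throughout the family. Tnfsf13, which fell, holds an AP-1 match, and Tnfrsf25 and Tnfrsf17, not called in tg/tg against WT, hold matches. Cd27, Tnfrsf4, Tnfrsf11a and Tnfrsf12a rose and, like Fasl, hold none. Capitals mark the matches, and each sequence reads 5′ to 3′ on the gene's strand. Tnfrsf9 has a pair of starts in the table, and the one shown (chr4:150927749-150927998, plus strand) holds a GAS, an NF-kappaB and an AP-1 match, while the other holds none. Ltb (chr17:35194257-35194506, plus strand) holds a GAS and an NF-kappaB match, Tnfrsf1b (chr4:145246871-145247120, minus strand) a GAS and an ISRE match, and Tnfrsf18 (chr4:156026072-156026321, plus strand) a GAS match. The other windows are those of Fasl (chr1:161788496-161788745, minus strand) and of 1 start of Tnfrsf19 (chr14:61037988-61038237, minus strand).
Tnfrsf9: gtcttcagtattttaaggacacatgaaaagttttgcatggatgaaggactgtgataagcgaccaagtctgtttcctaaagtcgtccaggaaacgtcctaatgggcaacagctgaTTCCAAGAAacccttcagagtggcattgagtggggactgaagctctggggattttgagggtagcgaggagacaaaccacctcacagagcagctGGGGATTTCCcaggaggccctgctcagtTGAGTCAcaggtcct
Ltb: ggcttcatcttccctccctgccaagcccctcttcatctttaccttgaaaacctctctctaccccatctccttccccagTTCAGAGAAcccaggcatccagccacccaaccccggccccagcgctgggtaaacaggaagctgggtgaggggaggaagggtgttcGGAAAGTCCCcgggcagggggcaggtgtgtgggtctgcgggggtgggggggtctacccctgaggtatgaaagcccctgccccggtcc
Tnfrsf1b: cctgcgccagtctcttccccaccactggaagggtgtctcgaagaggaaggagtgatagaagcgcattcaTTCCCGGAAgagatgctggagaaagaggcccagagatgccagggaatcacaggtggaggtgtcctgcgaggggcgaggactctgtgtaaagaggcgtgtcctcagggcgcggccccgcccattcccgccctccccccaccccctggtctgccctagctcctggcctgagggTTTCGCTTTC
Tnfrsf18: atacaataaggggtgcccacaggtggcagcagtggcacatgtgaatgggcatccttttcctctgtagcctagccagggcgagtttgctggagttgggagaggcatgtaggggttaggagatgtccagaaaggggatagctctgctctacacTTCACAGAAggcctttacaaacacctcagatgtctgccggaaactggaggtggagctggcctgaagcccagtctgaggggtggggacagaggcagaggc
Fasl: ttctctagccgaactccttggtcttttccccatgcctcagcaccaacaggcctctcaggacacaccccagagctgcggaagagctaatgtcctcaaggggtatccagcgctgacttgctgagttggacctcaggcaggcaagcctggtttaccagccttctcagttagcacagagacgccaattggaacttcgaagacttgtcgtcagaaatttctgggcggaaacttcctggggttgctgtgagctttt
Tnfrsf19: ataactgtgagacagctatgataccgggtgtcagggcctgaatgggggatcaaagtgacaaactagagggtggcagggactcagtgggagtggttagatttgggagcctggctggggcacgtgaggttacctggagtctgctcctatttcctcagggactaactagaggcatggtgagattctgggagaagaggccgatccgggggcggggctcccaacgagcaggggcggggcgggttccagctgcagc

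The costimulatory receptors of T cells were among the members that moved most. Of the 9 tested genes of these axes 8 were higher in tg/tg than in WT and 4 were higher in tg/wt. Over all tested genes the shares were 33.8% and 13.4%. Tnfrsf9 encodes CD137, which activated T and NK cells display. Its levels were -5.31 and -5.37 on the WT arrays, -4.60 and -4.61 on the tg/wt arrays and -0.24 and -0.16 on the tg/tg arrays. The tg/tg arrays stood far above the other 4, and the tg/wt arrays lay above WT without overlap. The difference between tg/tg and WT was 5.14 (SE 0.0451, adjusted p = 6.38e-07), or 35.2-fold, and that between tg/wt and WT was 0.74 (SE 0.0451, adjusted p = 0.00121).

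Tnfrsf4, which encodes OX40, a receptor of activated T cells, had levels of -0.88 and -0.94 on the WT arrays, -0.44 and -0.33 on the tg/wt arrays and 1.63 and 1.62 on the tg/tg arrays. Tnfrsf18, which encodes GITR, a receptor prominent on regulatory T cells, had levels of 0.19 and 0.21 on the WT arrays, 0.68 and 0.59 on the tg/wt arrays and 2.57 and 2.65 on the tg/tg arrays. Both genes rose in 2 steps without overlap, with the larger step between tg/wt and tg/tg. Tnfrsf4 differed by 2.53 (SE 0.0498, adjusted p = 2.89e-06), or 5.79-fold, in tg/tg against WT and by 0.52 (adjusted p = 0.00382) in tg/wt against WT. Tnfrsf18 differed by 2.41 (SE 0.0497, adjusted p = 3.30e-06), or 5.30-fold, and by 0.43 (adjusted p = 0.00630) in the same comparisons. Both genes are neighbours on chromosome 4, with no coding gene between them in RefSeq.

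Cd27, a receptor of resting and memory lymphocytes, had levels of -3.00 and -2.97 on the WT arrays, -2.24 and -2.15 on the tg/wt arrays and -0.54 and -0.55 on the tg/tg arrays. The 3 genotypes did not overlap, and Cd27 had the largest called rise of these receptors in tg/wt, at 0.79 (SE 0.0447, adjusted p = 0.00106). In tg/tg it was 2.44 above WT (adjusted p = 2.47e-06, 5.41-fold). Tnfrsf14, which encodes HVEM, the receptor of LIGHT and BTLA, had levels of -4.31 and -4.09 on the WT arrays, -4.15 and -4.01 on the tg/wt arrays and -2.68 and -2.68 on the tg/tg arrays. Its tg/wt arrays overlapped those of WT, and the rise of 1.52 (SE 0.0888, adjusted p = 8.16e-05) was called in tg/tg alone, with a direct difference of 1.40 between tg/tg and tg/wt (adjusted p = 1.18e-04). Tnfrsf25, which encodes the death-domain receptor DR3 of T cells, differed between tg/tg and WT by -0.08 (adjusted p = 0.208, 95% interval -0.22 to 0.05).

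Of the ligands of these axes 3 were bright enough to test, and all 3 were higher in tg/tg. Tnfsf9, the ligand of CD137, had levels of -3.58 and -3.63 on the WT arrays, -3.79 and -4.39 on the tg/wt arrays and -1.96 and -1.90 on the tg/tg arrays. The tg/tg arrays stood above the rest, and the tg/wt arrays were the lowest and differed from each other by more than either other pair. The difference was 1.67 (SE 0.196, adjusted p = 0.00107), or 3.19-fold, for tg/tg against WT and -0.49 (adjusted p = 0.131) for tg/wt. With normexp the tg/wt difference was -0.28 and was called (adjusted p = 0.0175). Without tg/wt replicate 1 the tg/wt difference became -0.78 and passed the threshold (adjusted p = 0.0107).

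Tnfsf14, which encodes LIGHT, the ligand of HVEM and of the lymphotoxin beta receptor, had levels of -0.83 and -0.91 on the WT arrays, -1.01 and -1.13 on the tg/wt arrays and 0.80 and 0.76 on the tg/tg arrays. The tg/tg arrays were above the rest, and tg/wt lay slightly below WT. Its tg/tg mean was 1.65 above WT (adjusted p = 1.58e-05), and the tg/wt difference of -0.20 missed the threshold (adjusted p = 0.0649), but passed it with an intensity trend (0.0288) and with the replicate number as a block (0.0489). Tnfsf8, the CD30 ligand, had levels of -4.54 and -5.37 on the WT arrays, -4.39 and -4.53 on the tg/wt arrays and -3.34 and -3.44 on the tg/tg arrays. The WT arrays lay far apart, the tg/wt arrays were at or just above the higher of them, and tg/tg was highest, with a rise of 1.56 (SE 0.277, adjusted p = 0.00500) over WT. Without WT replicate 1 the tg/wt difference of Tnfsf8 was 0.91 (adjusted p = 0.0140) in place of 0.49 (adjusted p = 0.243).

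Markers of T cells moved with these genes. All 11 tested T cell markers of 12 were higher in tg/tg and 9 were higher in tg/wt, and their mean level was -1.72 to -1.67 on the WT arrays, -0.93 to -0.90 on those of tg/wt and 0.80 to 0.83 on those of tg/tg. The 8 NK cell markers held 7 that were higher and 1 that was lower in tg/tg. The part of these markers in the rise of the costimulatory genes was not tested.

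**Figure D2:**
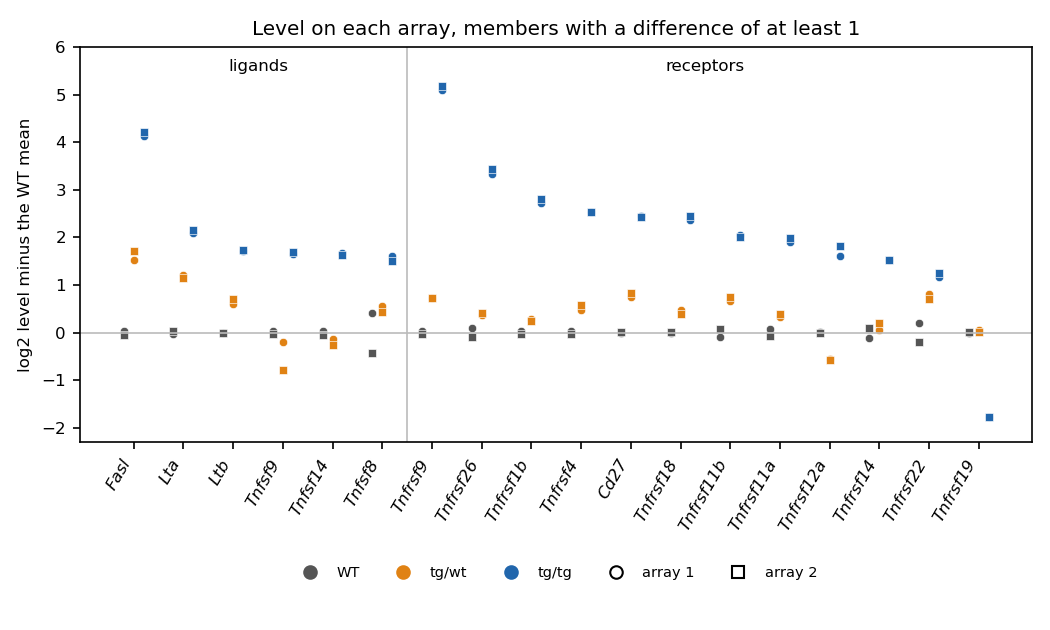
Log2 level minus the mean of the WT arrays, for each member with a called difference from WT and a difference of at least 1 in any comparison. Each point is 1 array, WT in grey, tg/wt in orange and tg/tg in blue, with circles for replicate 1 and squares for replicate 2. The tg/tg arrays stand above WT in 17 of the 18 genes and below it in Tnfrsf19, and the tg/wt arrays of Tnfrsf12a lie below WT.

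All 5 genes of the TNF and lymphotoxin axes in the member list were higher in tg/tg than in WT, and 3 were higher in tg/wt. Over all tested genes the shares were 33.8% and 13.4%. Lta, which encodes the secreted lymphotoxin alpha, had levels of -4.77 and -4.71 on the WT arrays, -3.53 and -3.59 on the tg/wt arrays and -2.64 and -2.59 on the tg/tg arrays. Ltb, which encodes its membrane-anchored partner lymphotoxin beta, had levels of 2.67 and 2.67 on the WT arrays, 3.27 and 3.38 on the tg/wt arrays and 4.38 and 4.41 on the tg/tg arrays. In both genes the genotypes did not overlap and rose in order. For Lta the step from WT to tg/wt was 1.18 (SE 0.0444, adjusted p = 4.34e-04) and that from tg/wt to tg/tg was 0.95 (SE 0.0444, adjusted p = 4.19e-05). In tg/tg against WT Lta was 4.36-fold and Ltb 3.30-fold higher (adjusted p 3.37e-06 and 7.80e-06). For Ltb these steps were 0.66 (adjusted p = 0.00196) and 1.07 (adjusted p = 3.96e-05).

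The receptors of these ligands were higher in tg/tg by 0.27 to 2.77. Tnfrsf1b encodes TNFR2, the inducible TNF receptor of T cells and myeloid cells, and its levels were -0.03 and -0.08 on the WT arrays, 0.23 and 0.19 on the tg/wt arrays and 2.67 and 2.74 on the tg/tg arrays. The tg/tg arrays stood well above the other 4, with a difference of 2.77 (SE 0.0437, adjusted p = 1.65e-06), or 6.81-fold, over WT. In tg/wt the difference was 0.27 (adjusted p = 0.0150), and that call was lost without any 1 of the WT or tg/wt arrays (adjusted p 0.0584 to 0.0817). Tnfrsf1a, the widely expressed death-domain TNF receptor, was 0.36 higher in tg/tg (adjusted p = 0.00399) and Ltbr, the lymphotoxin beta receptor of stromal and epithelial cells, 0.27 (adjusted p = 0.00339).

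Tnf itself is no member by the rule's letters, but it lies between Ltb and Lta on chromosome 17 with no other coding gene among them. Its levels were -4.61 and -4.56 on the WT arrays, -3.23 and -3.21 on the tg/wt arrays and 1.02 and 0.99 on the tg/tg arrays. The genotypes did not overlap, and the tg/tg mean of Tnf was 48.0-fold that of WT, a difference of 5.59 (SE 0.0364, adjusted p = 6.38e-07), which was 4.19 with normexp. In tg/wt it was 1.37 higher (adjusted p = 2.46e-04), or 0.63 with normexp, still called. All 3 neighbours thus had calls in the same direction in both comparisons with WT.

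In the death axes 6 of 7 tested members were higher in tg/tg than in WT and 3 were higher in tg/wt. Over all tested genes the shares were 33.8% and 13.4%. Fasl encodes the Fas ligand, with which cytotoxic T and NK cells kill. Its levels were -4.24 and -4.32 on the WT arrays, -2.76 and -2.56 on the tg/wt arrays and -0.14 and -0.06 on the tg/tg arrays. The genotypes did not overlap, and Fasl had the largest called rise of all members in tg/wt, 1.62 (SE 0.0812, adjusted p = 7.55e-04), or 3.08-fold. In tg/tg it was 4.18 above WT (SE 0.0812, adjusted p = 2.84e-06, 18.1-fold), and the direct difference between tg/tg and tg/wt was 2.56 (adjusted p = 1.25e-05). Its receptor Fas was bright in all groups and differed by 0.29 in tg/tg (adjusted p = 0.00547) and by -0.05 in tg/wt (adjusted p = 0.520).

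Tnfsf10, which encodes TRAIL, did not pass the threshold, with levels of 0.17 and 0.09 on the WT arrays, 0.16 and 0.20 on the tg/wt arrays and 0.19 and 0.20 on the tg/tg arrays and a difference in tg/tg of 0.06 (adjusted p = 0.219, 95% interval -0.04 to 0.17). Its death receptor Tnfrsf10b was 0.48 higher in tg/tg (adjusted p = 0.0292). That call was lost with no filter on dim probes (adjusted p = 0.0521). It was also lost without WT replicate 2, tg/tg replicate 1 or tg/tg replicate 2, with differences of 0.35, 0.56 and 0.39. With normexp the call was kept, at a smaller difference of 0.27 (adjusted p = 0.00532). With normexp Tnfrsf10b was also called lower in tg/wt than in WT, at -0.23 (adjusted p = 0.0362). Tnfrsf21, the death receptor DR6, was 0.31 higher in tg/tg (adjusted p = 0.00748).

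A cluster of receptors that lack a death domain, Tnfrsf26, Tnfrsf22 and Tnfrsf23, lies side by side on chromosome 7. Tnfrsf22 and Tnfrsf23 bind TRAIL as decoys. Tnfrsf26 had levels of -5.31 and -5.49 on the WT arrays, -5.03 and -4.98 on the tg/wt arrays and -2.07 and -1.95 on the tg/tg arrays, with 1 of the WT arrays well above background. Only tg/tg stood far apart, by 3.39 (SE 0.0775, adjusted p = 4.25e-06), or 10.5-fold over WT. Tnfrsf22 had levels of -5.27 and -5.68 on the WT arrays, -4.67 and -4.76 on the tg/wt arrays and -4.30 and -4.22 on the tg/tg arrays, also with 1 WT array above background. It rose in order without overlap, by 1.22 (SE 0.142, adjusted p = 0.00104) in tg/tg. Tnfrsf23 was not tested. It was well above background on 1 tg/tg array and on none of the others, and the mean of both tg/tg arrays exceeded WT by at least 1.29-fold.

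The tg/wt calls of this cluster were lost when single arrays were left out. Tnfrsf26 was 0.39 higher in tg/wt (adjusted p = 0.0245), and the call was lost without WT replicate 2, tg/wt replicate 1 or tg/wt replicate 2 (adjusted p 0.0796, 0.0805 and 0.111), with no filter on dim probes (0.0508), with an intensity trend (0.0587) and with the replicate number as a block (0.0545). Tnfrsf22 was 0.76 higher (adjusted p = 0.0216), and the call was lost without tg/wt replicate 1 or tg/wt replicate 2 (0.0911 and 0.0844).

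The background correction moved the size of the differences of the dim members. With normexp in place of the scanner's own subtraction, the tg/tg difference of Tnfrsf9 was 3.42 in place of 5.14, that of Tnfrsf26 1.70 in place of 3.39 and that of Lta 1.14 in place of 2.12. That of Fasl was 3.01 in place of 4.18. It was 0.93 for Tnfrsf14, 0.79 for Tnfsf8 and 0.41 for Tnfrsf22, and all 7 kept their call. The direct difference of Tnfrsf14 between tg/tg and tg/wt was 0.88. In tg/wt the normexp differences were 0.86 for Fasl and 0.49 for Lta, both called, and 0.25 for Tnfrsf9 (adjusted p = 0.113), 0.12 for Tnfrsf22 (0.441) and 0.06 for Tnfrsf26 (0.490), which were not.

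Members of the BAFF and APRIL axes, which act on B cells and plasma cells, differed from WT by at most 0.76 in size. Of 5 tested genes 3 were higher and 1 was lower in tg/tg, and 1 was higher in tg/wt. Over all tested genes 33.8% were higher and 40.8% lower in tg/tg, and 13.4% were higher in tg/wt. Tnfsf13b, which encodes BAFF, was 0.53 higher in tg/tg (adjusted p = 1.38e-04), and Tnfsf13, which encodes APRIL, was 0.23 lower (adjusted p = 0.00884), a call that was lost without WT replicate 2 (0.0512). Tnfrsf13b, which encodes TACI, was 0.53 higher (adjusted p = 0.00141), and with normexp it was not called (0.22, adjusted p = 0.108). Tnfrsf17, the plasma cell receptor BCMA, differed by 0.01 (adjusted p = 0.942, 95% interval -0.32 to 0.34).

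Tnfrsf13c encodes the BAFF receptor of mature B cells and was singled out after its values were seen. Its levels were -2.18 and -2.11 on the WT arrays, -1.36 and -1.41 on the tg/wt arrays and -1.77 and -1.69 on the tg/tg arrays. The tg/wt arrays were the highest, tg/tg lay between them and WT, and no groups overlapped. Its difference from WT was 0.76 (SE 0.0497, adjusted p = 0.00137) in tg/wt and 0.42 (SE 0.0497, adjusted p = 0.00112) in tg/tg, and tg/tg stood 0.34 below tg/wt (adjusted p = 0.00249). All 8 tested B cell markers of 9 were higher in tg/wt, while in tg/tg 3 were higher and 4 lower than in WT. Their mean level was -1.32 to -1.27 on the WT arrays, -0.39 to -0.37 on those of tg/wt and -0.99 to -0.98 on those of tg/tg. All 6 plasma cell markers were higher in tg/tg. The part of these markers in the BAFF receptor's values was not tested.

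Of the 5 tested genes listed with the RANK and TWEAK axes 3 were higher and 1, Tnfrsf19, was lower in tg/tg than in WT. Over all tested genes the shares were 33.8% and 40.8%. Tnfrsf11a, which encodes RANK, the receptor of osteoclast precursors and dendritic cells, had levels of -1.84 and -1.98 on the WT arrays, -1.58 and -1.51 on the tg/wt arrays and -0.01 and 0.08 on the tg/tg arrays. Tnfrsf11b, which encodes osteoprotegerin, the secreted decoy that binds the RANK ligand, had levels of -2.77 and -2.60 on the WT arrays, -2.01 and -1.95 on the tg/wt arrays and -0.63 and -0.68 on the tg/tg arrays. Both rose in order without overlap, RANK by 1.94 (SE 0.0664, adjusted p = 1.36e-05) and osteoprotegerin by 2.03 (SE 0.0690, adjusted p = 1.34e-05) in tg/tg against WT. In tg/wt osteoprotegerin was 0.71 higher (adjusted p = 0.00406) and RANK 0.37 (adjusted p = 0.0201). The tg/wt call of RANK was lost without WT replicate 2, tg/wt replicate 1 or tg/wt replicate 2 (adjusted p 0.0745, 0.0624 and 0.0958), and the mean of its probes gave 0.21.

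Tnfrsf12a encodes Fn14, the TWEAK receptor, which epithelial and stromal cells induce after injury. Its levels were 2.85 and 2.83 on the WT arrays, 2.28 and 2.28 on the tg/wt arrays and 4.45 and 4.66 on the tg/tg arrays. In the reported fit it was the only member with called differences from WT in opposite directions. Its tg/wt arrays lay below WT and its tg/tg arrays above, without overlap. Tnfsf9 and Tnfrsf10b had such calls with normexp, and Tnfsf14 had them with an intensity trend or the replicate number as a block. The Tnfrsf12a difference was -0.56 (SE 0.0758, adjusted p = 0.00933) in tg/wt and 1.71 (SE 0.0758, adjusted p = 3.13e-05) in tg/tg. The direct difference between tg/tg and tg/wt was 2.27 (SE 0.0758, adjusted p = 1.43e-05), or 4.84-fold. The lower call in tg/wt was lost without WT replicate 1 (adjusted p = 0.0538), tg/wt replicate 1 (0.0504) or tg/wt replicate 2 (0.0560). The 6 tested neutrophil markers of 7 had the same pattern of signs, all lower in tg/wt and all higher in tg/tg, with mean levels of 0.61 to 0.62 on the WT arrays, -1.24 to -1.21 on those of tg/wt and 1.18 to 1.27 on those of tg/tg. Their part in the Fn14 values was not tested. The ligand Tnfsf12, which encodes TWEAK, had no array well above background and was not tested.

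Tnfrsf19 encodes TROY, a receptor of epithelial and neural progenitors, and was the member with the largest fall. Its levels were 2.13 and 2.16 on the WT arrays, 2.21 and 2.17 on the tg/wt arrays and 0.38 and 0.38 on the tg/tg arrays. The tg/wt arrays lay just above WT, and both tg/tg arrays were far lower than WT, by 1.77 (SE 0.0348, adjusted p = 2.91e-06), which is 3.40-fold. In tg/wt the difference was 0.05 (adjusted p = 0.376, 95% interval -0.05 to 0.14). All 8 endothelial markers were also lower in tg/tg, with a mean level of 3.47 to 3.48 on the WT arrays, 3.39 to 3.42 on those of tg/wt and 2.10 to 2.12 on those of tg/tg. Of the 10 epithelial markers 5 were lower and 2 higher, and of the 7 fibroblast markers 3 were lower and 4 higher. Over all tested genes 40.8% were lower and 33.8% higher in tg/tg. The epithelial count of lower genes was 3 without WT replicate 1, WT replicate 2 or tg/tg replicate 1, and that of higher genes 1 without WT replicate 2 or tg/tg replicate 2. The part of any of these cells in the fall of Tnfrsf19 was not tested.

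The TRAF adaptors were higher in tg/tg by 0.15 to 0.67. Traf3, which restrains non-canonical NF-kappaB signalling, was 0.67 higher in tg/tg (adjusted p = 5.53e-05), and Traf2, which recruits the ubiquitin ligases of the TNF receptor complex, was 0.40 higher (adjusted p = 0.00161). Traf1, which activated lymphocytes induce, was 0.15 higher (adjusted p = 0.0217). The Traf1 call was lost without WT replicate 2, tg/tg replicate 1 or tg/tg replicate 2 (adjusted p 0.116, 0.0528 and 0.0776) and with normexp (0.0774). In tg/wt the 3 differences were 0.10, -0.05 and 0.13, none of them called.

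Several ligands of T cells and antigen-presenting cells, and CD30, were too dim to test. Cd40lg, Tnfrsf8 (CD30), Tnfsf4 (the OX40 ligand), Tnfsf15 (the DR3 ligand), Tnfsf18 (the GITR ligand) and Tnfsf12 were not well above background on any array, and Cd70, the CD27 ligand, was so on WT replicate 1 alone. Tnfsf18 gave -7.66 and -7.81 on the WT arrays, -8.03 and -7.60 on the tg/wt arrays and -6.15 and -5.85 on the tg/tg arrays. The tg/tg signals were the highest, and no fold can be given where no array is well above background. The receptors CD27, OX40 and GITR were thus above background in all genotypes, and each of their ligands was so on at most 1 array. Of the 34 tested members 31 were well above background on all 6 arrays, Tnfrsf22 and Tnfrsf26 on 5 and Tnfsf11 on 2.

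Where a gene had more than 1 probe, the brightest represented it, and the probes of 8 members can be compared by direction. Fasl, Tnfrsf11a, Tnfrsf21 and Tnfrsf10b each had a second tested probe with a rise in tg/tg. A fit of all probes was also read for tg/wt against WT. There the second probe of Tnfrsf11a gave 0.06 (adjusted p = 0.681) where the representing one gave 0.37. That of Tnfrsf21 gave 0.31 (adjusted p = 0.0466) where the representing one gave 0.11 and was not called. That of Tnfrsf10b gave 0.03 where the representing one gave -0.32, neither called. The third Tnfrsf10b probe was well above background on no array. The second Fasl probe was not well above background in WT, and was at least 6.76-fold higher in tg/tg and at least 1.25-fold higher in tg/wt. For Tnfrsf9 the other probe was well above background on none of the 6 arrays, so that the rise of CD137 rests on 1 probe. The signals of that other probe were lowest in tg/tg, at -7.48 and -7.19, against -6.27 and -6.54 on the WT arrays. No fold can be given for them. For Tnfrsf1b the other probe rose by 0.72 (adjusted p = 0.00511 in a fit of all probes), against 2.77 for the representing probe, and the mean of both gave 1.74.

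Tnfrsf25 and Tnfsf11 changed their result with the probe. The dimmer probe of Tnfrsf25 gave 1.03 in tg/tg against WT (adjusted p = 0.0211 in a fit of all probes), where the brighter one gave -0.08. Tnfsf11 encodes the RANK ligand, made by T cells and stromal cells. Its representing probe had levels of -7.71 and -4.13 on the WT arrays, -7.94 and -6.81 on the tg/wt arrays and -4.62 and -5.18 on the tg/tg arrays, above background on 1 WT and 1 tg/tg array, and a difference in tg/tg of 1.02 (adjusted p = 0.483, 95% interval -2.18 to 4.23). WT replicate 2 stood far above WT replicate 1, and the result depended on which of them was kept. Without WT replicate 2 the tg/tg difference was 2.81, and without WT replicate 1 it was -0.77. The tg/wt difference of this probe was -1.45, and -3.24 without WT replicate 1. The other probe had levels of -7.91 and -7.79 on the WT arrays, -8.04 and -6.94 on the tg/wt arrays and -3.64 and -4.22 on the tg/tg arrays. It was well above background on both tg/tg arrays alone, at least 3.05-fold higher than in WT and at least 3.01-fold higher than in tg/wt.

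**Figure D3:**
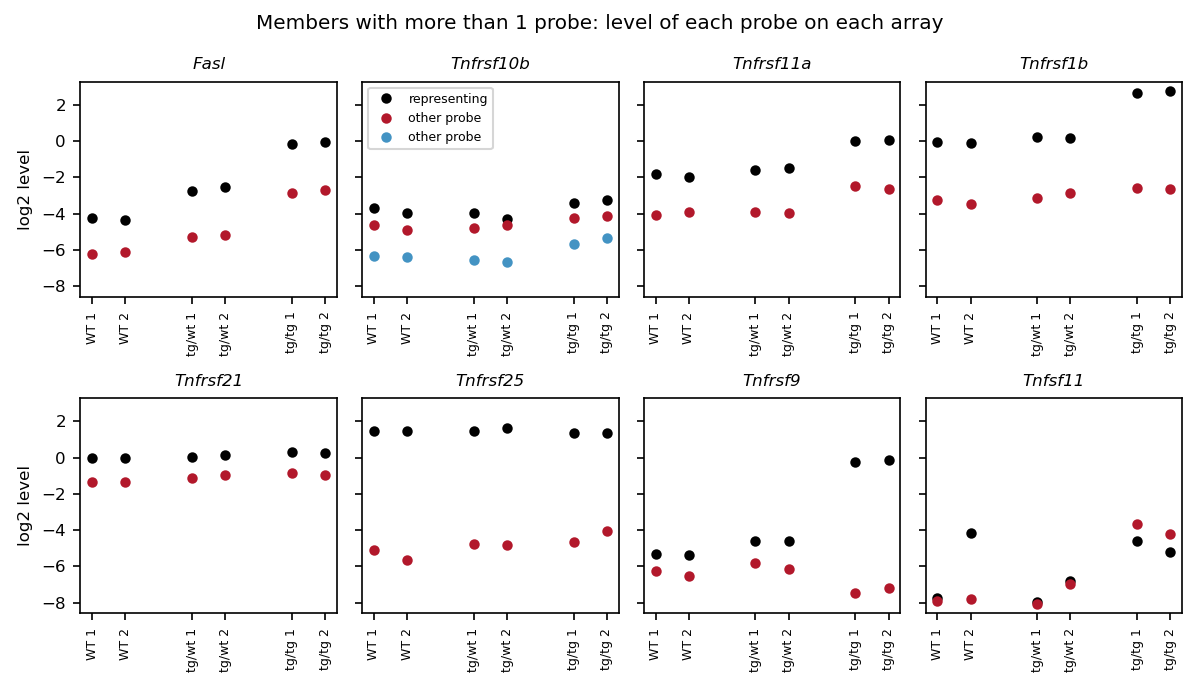
Log2 level of each probe on each of the 6 arrays for the 8 members with more than 1 probe, relative to the 75th percentile of the array. Black points are the probe that represents the gene and coloured points the others, and levels of different probes are not to be compared. The second probe of Tnfrsf9 stays at or below -5.82 on all arrays, and the pair of Tnfsf11 probes part on WT replicate 2, at -4.13 and -7.79.

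Some members lie beside each other in the RefSeq gene order. Those of each such group that could be tested were called higher in tg/tg, except Tnfsf13. It was lower and lies beside the untested Tnfsf12 on chromosome 11. Of all 34 tested members 28 were higher in tg/tg, and of all genes 33.8%. Whether position had a part was not tested. On chromosome 17 Tnfsf9, Cd70 and Tnfsf14 are consecutive, and Tnfsf9 and Tnfsf14 rose while Cd70 was not tested. On chromosome 6 Cd27, Ltbr and Tnfrsf1a are close, with Tuba3a and Scnn1a between them, and their tg/tg differences were 2.44, 0.27 and 0.36. For Fasl beside Tnfsf4 and Tnfsf18 on chromosome 1, and for Tnfrsf1b beside Tnfrsf8 and Tnfsf8 beside Tnfsf15 on chromosome 4, the neighbours were not tested.

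Genes of the signalling lists also stood mostly higher in tg/tg lung, and whether the members act on them here was not tested. Beside them, 33.8% of all tested genes were higher and 40.8% lower in tg/tg, and 13.4% and 14.6% in tg/wt. In the NF-kappaB pathway 23 of 27 tested genes of 28 were higher and 2 lower in tg/tg than in WT, with a median difference of 0.69. Of those past the threshold the largest changes were in Tnip3, an inhibitor of the pathway that is itself induced by it, Tnfaip2, a TNF-induced gene, Nfkbie, an I-kappaB protein, and Malt1, a scaffold and protease of antigen receptor signalling. Tnip3 was not well above background in WT and, with the scanner's own background subtraction, at least 11.1-fold higher in tg/tg, Tnfaip2 was 11.3-fold, Nfkbie 10.7-fold and Malt1 9.62-fold higher (adjusted p 0.00128, 6.67e-07, 8.87e-07 and 9.44e-07). With normexp the log2 difference of Tnip3 was 2.02, still called and smaller than that bound. Tnip3 was well above background on 2 arrays, both tg/tg, and so met the filter only through the group where it is high. Its adjusted p and its place in the count of 23 depend on that entry. In tg/wt 12 genes of the list were called higher and 1 lower, but the count of higher genes was 0 without WT replicate 1, 1 without WT replicate 2, 5 without tg/wt replicate 1 and 0 without tg/wt replicate 2.

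Among other adaptors and death-signalling genes 18 of 24 tested genes of 26 were higher and 4 lower in tg/tg, with a median difference of 0.82. The 4 with the largest change were Ripk3, the kinase of necroptosis, at 3.99-fold (adjusted p = 2.24e-06), Bid, which links death receptors to mitochondria, at 3.44-fold (3.91e-06), Birc3, a ubiquitin ligase that TRAF2 recruits, at 2.86-fold (4.11e-06), and Traf3ip3 at 2.85-fold (2.26e-05) of WT. The count of lower genes was 2 without WT replicate 1, WT replicate 2, tg/wt replicate 1, tg/wt replicate 2 or tg/tg replicate 2. In tg/wt 7 genes of this list were higher and none lower, with 3 higher without either WT array, 4 without tg/wt replicate 1 and 2 without tg/wt replicate 2.

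Of 5 tested genes of 7 in the list of superfamily genes outside the rule's names, 2 were higher and 3 lower in tg/tg. Over all tested genes 33.8% were higher and 40.8% lower. Beside Tnf, Relt, a lymphoid receptor of the family, was 0.79 higher (adjusted p = 8.90e-05), and Ngfr, the low-affinity neurotrophin receptor, was 0.93 lower (adjusted p = 3.44e-05). With normexp these differences were 0.48 and -0.57, both called. Eda, the ectodysplasin ligand of epithelial development, had levels of -3.88 and -3.93 on the WT arrays, -4.03 and -3.98 on the tg/wt arrays and -7.69 and -6.39 on the tg/tg arrays. It was not well above background in tg/tg, and with the scanner's own background subtraction at least 2.64-fold lower there than in WT (adjusted p = 0.00182). With normexp the difference of Eda was -0.78, still called and smaller than that bound.

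Markers of monocytes and macrophages, which make TNF and carry TNFR2 and RANK, were higher in all 10 tested of 12 in tg/tg, with a mean level of 0.34 to 0.37 on the WT arrays, 0.84 to 0.88 on those of tg/wt and 3.91 to 3.94 on those of tg/tg. In tg/wt 7 of them were higher and 1 lower, and the lower count was 0 without either WT array or either tg/wt array. Of 7 tested dendritic cell markers of 8, 2 were higher and 3 lower in tg/tg, beside 33.8% and 40.8% of all genes. The part of these cells in the rise of Tnf, Tnfrsf1b, Tnfrsf11a and the NF-kappaB genes was not tested. No probe was matched for Cd8a, Csf1r, Cd68 or Ly6g among the defining markers of T cells, macrophages and neutrophils.

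**Figure D4:**
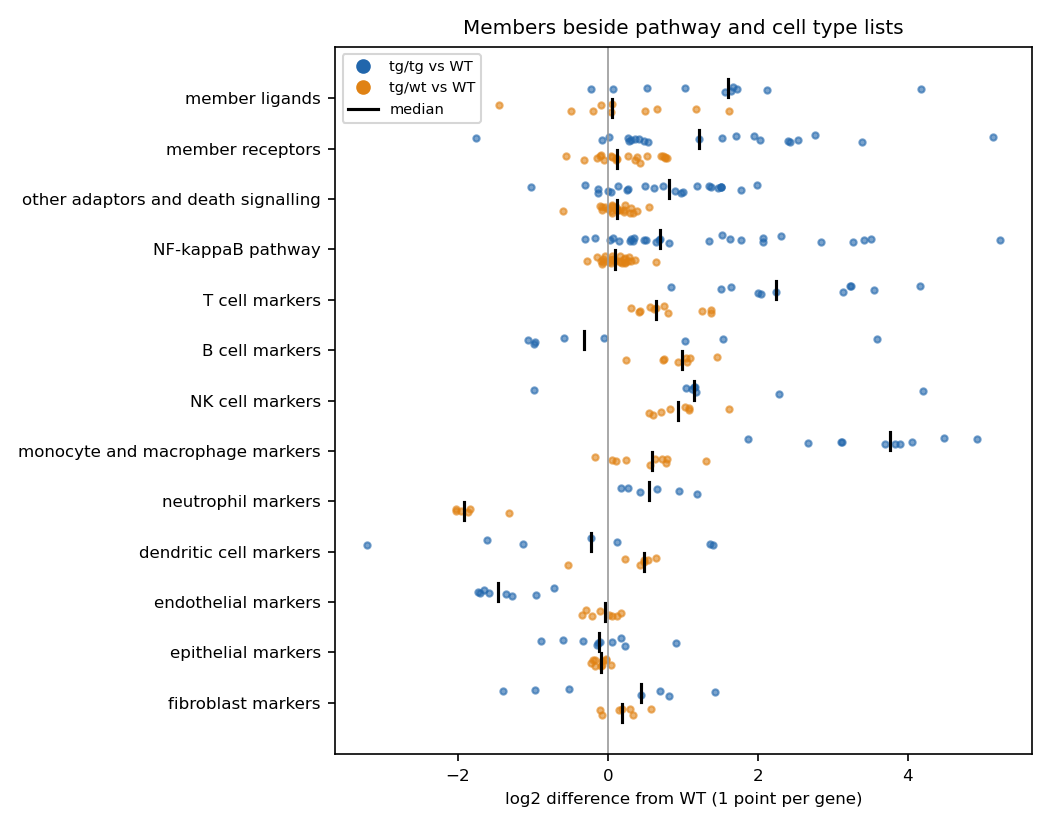
Log2 difference of each tested gene from WT in the pathway and marker lists, with the member ligands and receptors on top. Each point is 1 gene, tg/tg against WT in blue and tg/wt against WT in orange, and black bars are medians. The T cell and monocyte and macrophage lists lie wholly to the right of 0 in tg/tg, the endothelial list wholly to the left, and the neutrophil list lies to the left in tg/wt and to the right in tg/tg.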

How the data were processed

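Whole-lung RNA of 6 mouse samples was labelled with Cy3 and hybridised to 1 single-colour array each, per the labels' protocols. The deposited values are linear intensities: per the file headers, Agilent Feature Extraction 9.5.3.1 read them on a grid built on mm7, with background subtraction and detrending, and not scaled between arrays, while the submitters' processing notes name version 9.1. The deposited series table holds the background-subtracted intensity of the same spots. From the scanner files, log2 of the processed intensity was taken and the 75th percentile over the probes of an array subtracted, without control spots and outlier spots. Scanner accessions were matched to RefSeq symbols (GRCm38.p6) for 22951 of 41174 probes, since the files hold no column of gene names. A probe was used if well above background on at least 2 arrays, and the brightest probe represented each gene, which left 12968 genes. All 6 arrays entered 1 linear model in limma 3.58.1 (R 4.3.3, data.table, version 1.17.8; 3 residual and 1.77 prior degrees of freedom), with Benjamini-Hochberg adjustment over all genes and a threshold of 0.05; the script was tested on simulated data. Standard errors and 95% intervals are those of the fit.

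A fold is a lower bound ("at least") where the dimmer group had no array well above background for that probe. The dimmer group then takes, on each of its arrays, the dimmest signal that still counts as well above background, or the probe's signal if that is higher, and the bound is the distance from the mean of these to the mean of the brighter group. Folds otherwise are 2 to the power of the log2 difference.

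Values on every array are given for members past the threshold against WT in either comparison and different by at least 1 in any, or with called differences of opposite sign; of each pathway list up to 4 genes past the threshold with the largest tg/tg change are named. The members and lists were chosen with earlier results of these data known. Alternatives in scaling, background, filter, choice of probe, source table, trend, samples fitted (also slide 1 alone) and replicate block, and each array left out, were run. Figures used Python 3.11.15 and matplotlib 3.10.9.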

Additional observations from a re-analysis of the deposited data

How the results depend on the processing

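Over 19 alternatives, 6 of them leaving out 1 array, all 18 tg/tg against WT calls of the members shown array by array kept their direction and their side of the threshold. Of 13 such calls in tg/wt against WT, 6 were lost in at least 1 alternative, and of 18 in tg/tg against tg/wt, 2 were (Tnfrsf22 and Tnfsf8). The alternatives are not all distinct. For each comparison, leaving out an array of the third genotype gave the same fit as the groups compared alone, since a lone array adds no spread. For tg/tg against WT the fit of slide 1 is that fit too. The count of members lower in tg/wt than in WT, 1 in the reported fit, was 3 with normexp, 2 with an intensity trend and 2 with the replicate number as a block. With single arrays left out, members higher in tg/tg than in WT numbered 26 to 28 and lower 1 to 2, higher in tg/wt than in WT 9 to 13 and lower 0 to 1, and in tg/tg against tg/wt 23 to 26 were higher and 2 to 3 lower. Tnfrsf25 reversed with the mean of its probes, to 0.47 in tg/tg against WT (adjusted p = 0.0251) and 0.13 in tg/tg against tg/wt (adjusted p = 0.411). Where not stated, the cause was not tested. Over all genes, tg/wt against WT had 1732 higher and 1887 lower; without WT replicate 1 these were 802 and 595, without WT replicate 2 761 and 711, without tg/wt replicate 1 919 and 888, without tg/wt replicate 2 746 and 718, and with no filter on dim probes 1200 and 1208. Same-numbered replicates shared only a number: their deviations from the group means correlated at 0.129, -0.048 and -0.046. With that number as a block Tnfrsf26 lost its tg/wt call, Tnfsf14 gained one at -0.20 (adjusted p = 0.0489) and Tnfrsf21 lost its call in tg/tg against tg/wt (adjusted p = 0.0612); no other member's call changed. Bounds on folds hold for the scanner's own background subtraction and can be smaller with normexp. Slide could not be fitted as a block. For tg/tg against WT all arrays were on slide 1, and in the other comparisons slide and genotype coincide. Naming genes by RefSeq alone coincides with the reported fit, because the files hold no other names, and was not run. Dim members are limited by their signal over background.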
